A study of Mus musculus with 6 samples.

Results

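The genes described here encode the Wnt ligands, their receptors, the secreted proteins that block them and a few proteins of the signal's core, as measured in mouse blastocysts. A probe belonged to the family when its gene symbol in the platform annotation was a Wnt or frizzled gene, Lrp5 or Lrp6, a Dkk gene or Dkkl1, an Sfrp gene, Wif1, Porcn, Axin1, Axin2, Ctnnb1, Tcf3, Tcf7l1, Tcf7l2 or Lef1. That rule gave 95 probes of 49 genes, among 45281 probes and 19057 named genes on the array. Of the family, 32 probes of 18 genes were above background, meaning that in 1 or more groups both arrays gave a detection p-value below 0.05, and these were analysed. They made up 33.7% of the family's probes, against 39% of all probes on the array.

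Pools of 100 to 120 blastocysts were measured on 6 Illumina bead arrays, 2 in each of 3 groups, and the mothers were females of the outbred CD-1 strain. All females had received 5 IU of pregnant mare gonadotropin, then 5 IU of human chorionic gonadotropin after 44 h, and were mated. The ICI group was flushed from the uterus after the mothers had received 0.5 µg per mouse of a compound the labels call ICI, the oviduct group came from ligated oviducts, and the uterus group from normal pregnancies without treatment. The series title names estrogen-regulated expression as its subject. All embryos are described as day 3.5, no genetic alteration is named, and each array holds RNA of many embryos, so neither single embryos nor the effect of ICI on the mother can be read from it. Separate mothers for the pools within a group are not stated, so p-values reflect the spread between the pools as deposited, which may be technical.

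Wnt proteins are secreted ligands that are lipid-modified by the acyltransferase Porcn and bind frizzled receptors together with Lrp5 or Lrp6. In the canonical branch this stops the Axin complex from marking β-catenin (Ctnnb1) for destruction, and β-catenin then acts with TCF/LEF factors on target genes. Dkk proteins, Sfrp proteins and Wif1 are secreted antagonists. The blastocyst consists of an outer trophectoderm, an inner cell mass and a fluid cavity, and Wnt genes are known to be transcribed in it before implantation.

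A pair of DNA stretches is shown because it bears on the members described first: the start of Wnt6, the only family gene past the test, and the start of Dkkl1, the only analysed family gene with a promoter entry whose window holds an estrogen receptor half-site. RefSeq promoter entries of mouse assembly GRCm38.p6, 250 bases before to 50 bases after an annotated transcript start, were found for 10 of the 18 analysed genes (12 entries). In the Wnt6 window, chr1:74771642-74771941 on the plus strand, the capitals mark the TFAP2 core GCCNNNGGC, the letters preferred by the TFAP2 factors of trophectoderm, whose first base lies 12 bases before the start. In the Dkkl1 window, chr7:45211834-45212133 on the minus strand, the capitals mark the half-site AGGTCA, whose first base lies 177 bases before the start.
Wnt6: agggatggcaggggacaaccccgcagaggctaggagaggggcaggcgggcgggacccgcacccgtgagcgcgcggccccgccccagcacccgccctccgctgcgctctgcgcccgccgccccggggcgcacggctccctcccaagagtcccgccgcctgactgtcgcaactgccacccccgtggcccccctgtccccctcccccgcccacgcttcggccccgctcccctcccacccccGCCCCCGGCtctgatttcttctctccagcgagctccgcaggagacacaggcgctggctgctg
Dkkl1: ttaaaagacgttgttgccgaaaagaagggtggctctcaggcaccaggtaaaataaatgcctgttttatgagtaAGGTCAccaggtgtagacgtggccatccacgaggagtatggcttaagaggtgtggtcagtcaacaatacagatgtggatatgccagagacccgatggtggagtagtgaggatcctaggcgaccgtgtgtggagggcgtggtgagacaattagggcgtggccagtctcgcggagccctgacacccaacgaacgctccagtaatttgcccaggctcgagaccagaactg
The Wnt6 window is 76.7% G and C and the Dkkl1 window 53.0%. On both strands, the TFAP2 core was found in 6 of the 12 windows (5 of the 10 genes), the half-site in 1 window, the GATA core AGATAA in 1, and the TCF/LEF core CTTTGA in 0. All fixed letters of the TFAP2 core are G or C, and the windows that hold it were 75.0% to 86.3% G and C. Its share among promoters equally rich in G and C was not counted. The full estrogen response element, GGTCA and TGACC with 3 bases between them, was also found in 0. Over all 32851 mouse promoter entries these letters occur in 16.6% (TFAP2 core), 16.3% (half-site), 11.2% (GATA core), 16% (TCF/LEF core) and 0.07% (full element, which includes the last 5 letters of the half-site). A match describes the letters of a window and is not a measured binding site.

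Before the members' values, 2 facts about the arrays matter. The oviduct pools were least alike (r = 0.960 across probes, against 0.991 between the ICI arrays and 0.988 between the uterus arrays), and oviduct replicate 1 had the highest mean signal, 488 against 344 to 381 on the other 5 arrays. Values are therefore given after quantile normalization, as log2 signal with SD over n = 2 arrays, and levels are compared between groups for the same probe only. Uterus replicate 2 was high in oocyte and early cleavage markers. Bead signals of the 9 on the array summed to 4745 there, 904 on uterus replicate 1 and 814 to 1356 on the ICI and oviduct arrays. The part of such transcripts in the members' values was not tested. Blastocyst genes were present: 14 of 15 trophectoderm markers and 11 of 11 inner cell mass markers on the array were analysed. With pooled embryos, fewer cells of a type and less RNA per cell cannot be told apart.

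**Figure D1:**
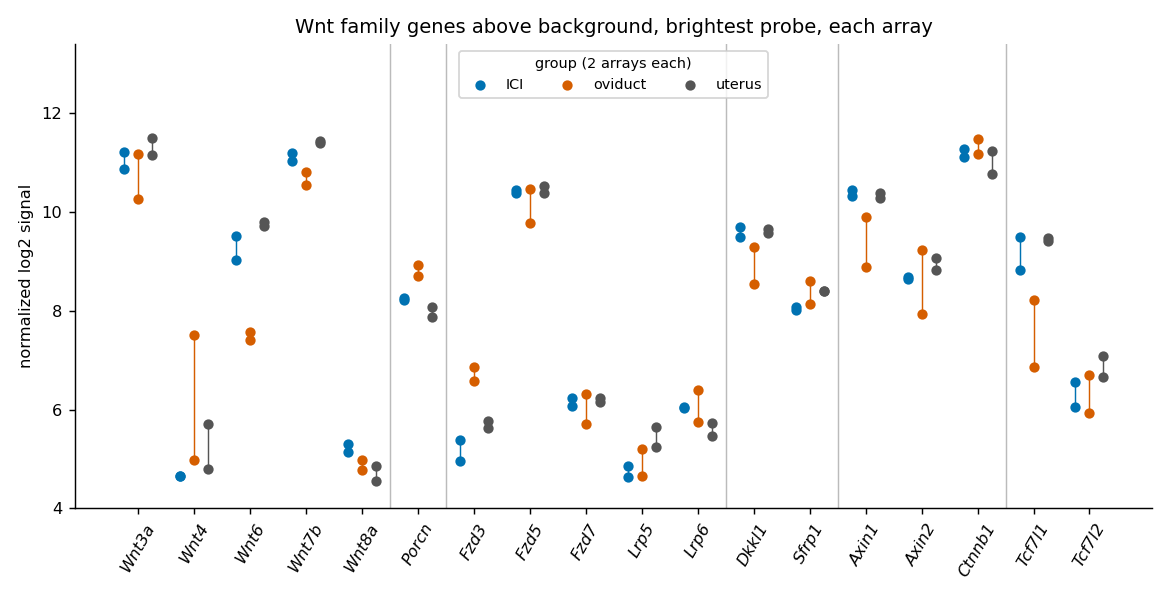
Normalized log2 signal of the brightest analysed probe of each of the 18 family genes, 1 point per array, with a line joining the 2 arrays of the ICI, oviduct and uterus groups, and vertical rules separating ligands, Porcn, receptors, antagonists, Axin and β-catenin, and TCF factors. The oviduct points of Wnt6 lie at 7.40 and 7.57, below all other arrays, and the oviduct arrays of Wnt4 lie at 4.99 and 7.50.

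Among the ligands, 5 of 19 genes on the array were analysed: Wnt3a, Wnt4, Wnt6, Wnt7b and Wnt8a (8 of 32 probes). Wnt6, a ligand known for roles in epithelia, was the family gene that differed most. Its brightest probe, ILMN_2423835, had bead signals of 552 and 657 in the ICI group, 313 and 238 in the oviduct group, and 918 and 820 in the uterus group. After normalization the log2 signal was 9.03 and 9.51 on the ICI arrays, 7.57 and 7.40 on the oviduct arrays, and 9.80 and 9.71 on the uterus arrays. The oviduct arrays were lowest in both scales, the uterus arrays highest, and no groups overlapped.

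Wnt6 fell in the oviduct group relative to the uterus group. The group means were 7.48 ± 0.12 in the oviduct group and 9.76 ± 0.06 in the uterus group (SD, n = 2 each), which differ by -2.27 on the log2 scale (SE 0.22, limma adjusted p = 0.0427), or 0.207 times the uterus level. It was the only family probe past the test in this comparison, in which 0.0509% of all 17677 analysed probes passed, 0.0453% with a lower and 0.00566% with a higher level. Wnt6 was also higher in the ICI group than in the oviduct group, at 9.27 ± 0.34 against 7.48 ± 0.12 (SD, n = 2 each), 3.44-fold (log2 difference 1.78, SE 0.22, limma adjusted p = 0.0411). There too it was the only family probe past the test, against 0.339% of all analysed probes, and 0.221% with a higher level. Both comparisons use the same oviduct arrays.

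Both calls depended on the samples in the fit. Where an oviduct array was left out, the spread of the oviduct group was taken from the other groups, so passing there adds no support. Without an oviduct array the oviduct and uterus groups still differed in Wnt6 (limma adjusted p = 0.00994 without oviduct replicate 1 and 0.0420 without oviduct replicate 2), but the adjusted p was 0.0766 without either ICI array, 0.474 without uterus replicate 1 and 0.344 without uterus replicate 2. For the ICI and oviduct groups the adjusted p was 0.0170 without oviduct replicate 1, 0.0163 without oviduct replicate 2, 0.133 without ICI replicate 1, 0.420 without ICI replicate 2 and 0.182 without either uterus array. The log2 difference between the oviduct and uterus groups ran from -2.35 to -1.87 over all 13 alternatives, and that between the ICI and oviduct groups from 1.32 to 2.02.

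Between the ICI and uterus groups, Wnt6 did not pass the test. The ICI mean was 9.27 ± 0.34 and the uterus mean 9.76 ± 0.06 (SD, n = 2 each), which differ by -0.49 on the log2 scale (SE 0.22, limma adjusted p = 0.550). The ICI arrays lay below the uterus arrays without overlap, which 54% of all analysed probes also showed in this comparison in one direction or the other.

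A further pair of Wnt6 probes was analysed. ILMN_2901765 read 8.86 and 9.50 on the ICI arrays, 7.56 and 7.33 on the oviduct arrays, and 9.72 and 9.65 on the uterus arrays. Its log2 differences were -2.25 for oviduct minus uterus (SE 0.25, limma adjusted p = 0.0559), 1.74 for ICI minus oviduct (SE 0.25, limma adjusted p = 0.0526) and -0.51 for ICI minus uterus (SE 0.25, limma adjusted p = 0.576). They were close in size to those of the first probe but not past the threshold. The dimmer ILMN_2491759 was above background on the uterus arrays, at 5.82 and 5.44, and on neither ICI array (4.66 and 4.99) nor oviduct array (4.76 and 4.49). It was therefore at least 1.52-fold lower in the ICI group (limma adjusted p = 0.535) and at least 1.61-fold lower in the oviduct group (limma adjusted p = 0.114) than in the uterus group; each bound sets the uterus mean against the higher of the probe's own level and the lowest detected level on each dim array. ILMN_2423835 and ILMN_2901765 thus had their highest level on the uterus arrays. So did ILMN_2491759, but the detection filter kept that probe only through the uterus arrays, so its order of groups adds no support.

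**Figure D2:**
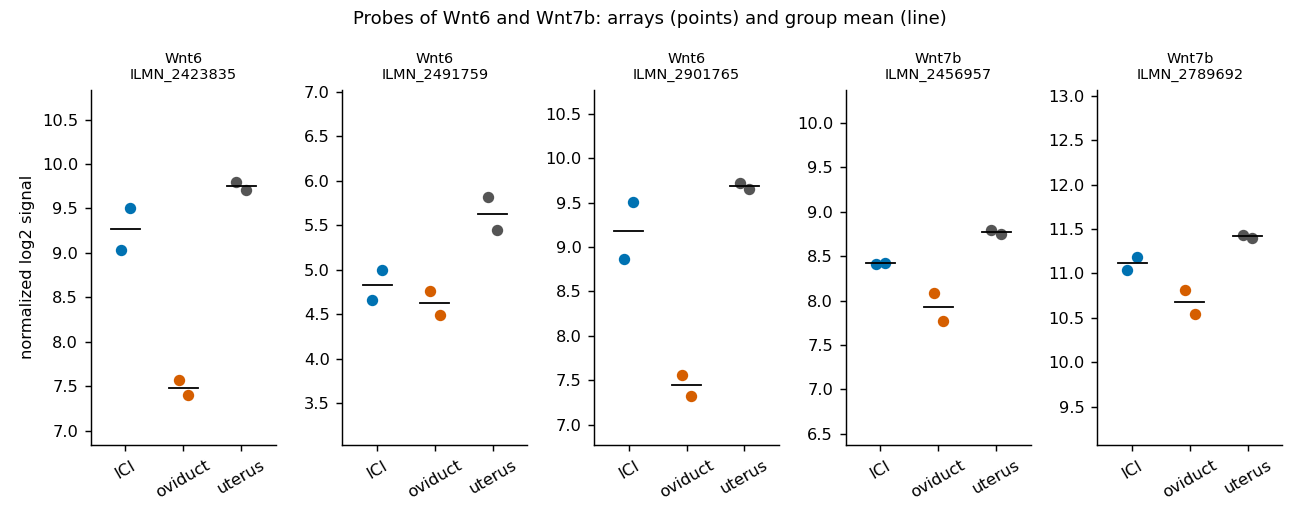
Normalized log2 signal of the 3 Wnt6 and 2 Wnt7b probes on each array (points), with group means (horizontal lines), for the ICI, oviduct and uterus groups; each panel has its own axis range of equal span. In all 5 panels the uterus arrays are highest, and in both Wnt7b panels the ICI arrays lie between the oviduct and uterus arrays. The dim Wnt6 probe ILMN_2491759 was kept only through the uterus arrays.

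Wnt7b, a ligand that acts in lung, placenta and brain, was measured by 2 probes that followed the same order of groups. ILMN_2789692 read 11.04 and 11.19 on the ICI arrays, 10.81 and 10.54 on the oviduct arrays, and 11.44 and 11.40 on the uterus arrays. ILMN_2456957 read 8.41 and 8.42 on the ICI arrays, 8.09 and 7.77 on the oviduct arrays, and 8.80 and 8.75 on the uterus arrays. Within each probe no groups overlapped: the uterus arrays were highest and the oviduct arrays lowest.

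No Wnt7b difference passed the adjusted threshold. For oviduct minus uterus the log2 difference was -0.74 (SE 0.19, limma adjusted p = 0.130) by the first probe and -0.84 (SE 0.19, limma adjusted p = 0.113) by the second, and for ICI minus oviduct it was 0.44 (limma adjusted p = 0.247) and 0.49 (limma adjusted p = 0.218). For ICI minus uterus it was -0.31 (SE 0.19, limma adjusted p = 0.630) and -0.35 (SE 0.19, limma adjusted p = 0.595). In raw bead signal ILMN_2789692 overlapped, with 2570 and 1491 in the oviduct group and 2755 and 2463 in the uterus group, so its separation rests on normalization between arrays. Without oviduct replicate 1, the array of highest mean signal, both Wnt7b probes passed for oviduct minus uterus (limma adjusted p = 0.0391 and 0.0273).

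With all 6 arrays, the remaining ligands did not pass the test in any comparison. Wnt3a, which sustains stem cell self-renewal in mouse cultures, had 10.86 and 11.22 on the ICI arrays, 11.17 and 10.27 on the oviduct arrays, and 11.15 and 11.49 on the uterus arrays. Its groups overlapped in all 3 comparisons. Wnt8a, a ligand of the early embryo that is best known from axis formation, was above background on both ICI arrays (5.30 and 5.13), 1 oviduct array (4.98 and 4.78) and neither uterus array (4.85 and 4.55). It was at least 1.10-fold higher in the ICI group than in the uterus group, with an unadjusted p of 0.0355 in limma and an adjusted p of 0.539. These values are of ILMN_2485198 only. The other Wnt8a probes, ILMN_1219317 and ILMN_2485197, were above background on no array.

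Wnt4, a ligand with known roles in the female reproductive tract and kidney, stood apart through single arrays. ILMN_2889641 had 4.67 and 4.66 in the ICI group, where neither array was above background, 4.99 and 7.50 in the oviduct group, and 4.79 and 5.71 in the uterus group. Its SD was 1.78 in the oviduct group, the largest of the analysed family probes there. The second Wnt4 probe, not analysed, read 4.72 and 6.89 in the oviduct group and 4.78 and 5.36 in the uterus group, high on the same arrays. The limma adjusted p for ILMN_2889641 was 0.820 for ICI minus uterus, 0.513 for oviduct minus uterus and 0.281 for ICI minus oviduct. Which oviduct array was kept decided its value: for oviduct minus uterus the log2 difference was 0.99 with both, 2.25 without replicate 1 and -0.26 without replicate 2. For ICI minus oviduct it was -1.58 with both, -2.84 without oviduct replicate 1 and -0.32 without oviduct replicate 2.

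Porcn, the acyltransferase that attaches a fatty acid to Wnt proteins, ran the opposite way to Wnt6. ILMN_3093626 read 8.21 and 8.25 on the ICI arrays, 8.71 and 8.92 on the oviduct arrays, and 7.88 and 8.08 on the uterus arrays. The oviduct arrays were highest and no groups overlapped. The log2 difference was 0.84 for oviduct minus uterus (SE 0.18, limma adjusted p = 0.113), -0.58 for ICI minus oviduct (SE 0.18, limma adjusted p = 0.163) and 0.25 for ICI minus uterus (SE 0.18, limma adjusted p = 0.679). Without oviduct replicate 1 the first of these was 0.94. The dimmer ILMN_2637090 was above background on both oviduct arrays (5.52 and 5.74), 1 uterus array (5.42 and 4.95) and neither ICI array (4.92 and 5.03), at least 1.52-fold lower in the ICI group than in the oviduct group (limma adjusted p = 0.182).

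Of the receptors, 3 of 10 frizzled genes and both Lrp genes were analysed. Fzd3, a frizzled receptor best known from axon guidance and planar polarity, had the largest contrasts. ILMN_2777437 read 5.39 and 4.96 on the ICI arrays, 6.86 and 6.58 on the oviduct arrays, and 5.62 and 5.76 on the uterus arrays. The oviduct arrays were the highest and the ICI arrays the lowest, without overlap, although only 1 ICI array was above background. The log2 difference was -1.54 for ICI minus oviduct (SE 0.22, limma adjusted p = 0.0526) and 1.03 for oviduct minus uterus (SE 0.22, limma adjusted p = 0.110), neither past the threshold. For ICI minus oviduct the difference ran from -1.76 to -0.78 over all 13 alternatives. The second Fzd3 probe had smaller differences of the same sign, -0.58 for ICI minus oviduct and 0.19 for oviduct minus uterus.

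Fzd5, a frizzled receptor needed for yolk sac and placental vessels in the mouse, was read by 3 probes that disagreed. ILMN_2591703 had 7.29 and 6.96 in the ICI group, 7.61 and 7.88 in the oviduct group, and 7.20 and 7.06 in the uterus group, with log2 differences of 0.62 for oviduct minus uterus (limma adjusted p = 0.194) and -0.62 for ICI minus oviduct (limma adjusted p = 0.177). The brightest probe, ILMN_3161263, had 10.45 and 10.39 in the ICI group, 10.47 and 9.78 in the oviduct group, and 10.53 and 10.38 in the uterus group, and differed by -0.33 for oviduct minus uterus, or by 0.012 without oviduct replicate 2. The dim ILMN_1223759 differed by 0.39. Fzd5 therefore has no settled direction here, and Fzd7 overlapped between groups in all 3 comparisons.

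Lrp5 and Lrp6 are the co-receptors that recruit Axin to the membrane. Lrp5 read 4.63 and 4.85 on the ICI arrays, neither above background, 5.20 and 4.65 on the oviduct arrays, and 5.65 and 5.24 on the uterus arrays. It was at least 1.34-fold lower in the ICI group than in the uterus group, with an unadjusted p of 0.0297 in limma and an adjusted p of 0.535. These values are of ILMN_2942097 only. The other Lrp5 probes, ILMN_1231731, ILMN_2729431 and ILMN_2729433, were above background on no array. The brighter Lrp6 probe read 6.06 and 6.04 on the ICI arrays, 6.39 and 5.74 on the oviduct arrays, and 5.47 and 5.72 on the uterus arrays, and both groups lay above the uterus arrays without passing (limma adjusted p = 0.606 for ICI minus uterus and 0.369 for oviduct minus uterus).

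Among 10 genes of secreted antagonists, Dkkl1 and Sfrp1 were analysed (4 of 15 probes). Dkkl1 is related to the Dkk family by sequence and is best known from the testis and the acrosome of sperm. ILMN_2627081 read 9.50 and 9.69 on the ICI arrays, 9.30 and 8.55 on the oviduct arrays, and 9.57 and 9.65 on the uterus arrays. ILMN_2752580 read 8.96 and 9.40 on the ICI arrays, 8.19 and 8.12 on the oviduct arrays, and 8.56 and 8.95 on the uterus arrays. In both probes the oviduct arrays were lowest without overlap. The other Dkkl1 probe, ILMN_2823612, was above background on no array.

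The Dkkl1 log2 difference for oviduct minus uterus was -0.69 (SE 0.27, limma adjusted p = 0.243) by the first probe and -0.60 (SE 0.23, limma adjusted p = 0.239) by the second, and for ICI minus oviduct 0.67 (SE 0.27, limma adjusted p = 0.227) and 1.02 (SE 0.23, limma adjusted p = 0.101). Raw signals of ILMN_2627081 overlapped, at 936 and 436 in the oviduct group and 788 and 785 in the uterus group. Without oviduct replicate 1 the differences of this probe were -1.06 for oviduct minus uterus and 1.05 for ICI minus oviduct. Sfrp1, a secreted decoy with a frizzled-like domain, had by its brighter probe 8.02 and 8.08 on the ICI arrays, 8.61 and 8.13 on the oviduct arrays, and 8.40 and 8.39 on the uterus arrays, and no comparison reached an unadjusted p under 0.05.

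Within the β-catenin core, Axin1, Axin2 and Ctnnb1 were analysed. Axin1, the scaffold of the destruction complex, read 10.32 and 10.44 on the ICI arrays, 8.89 and 9.90 on the oviduct arrays, and 10.29 and 10.38 on the uterus arrays by its brightest probe. The oviduct arrays were lowest, 1 of them by far. The log2 difference was -0.94 for oviduct minus uterus (SE 0.33, limma adjusted p = 0.205) and 0.99 for ICI minus oviduct (SE 0.33, limma adjusted p = 0.176). Without oviduct replicate 2, which leaves the lower oviduct array, they were -1.45 and 1.49. The second Axin1 probe overlapped between groups in all 3 comparisons.

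Axin2, a widely used read-out of canonical signalling, differed little between group means but widely between the oviduct pools. It read 8.64 and 8.69 on the ICI arrays, 9.23 and 7.93 on the oviduct arrays, and 9.07 and 8.82 on the uterus arrays. The oviduct arrays thus lay on either side of all the others. Its log2 difference was -0.28 for ICI minus uterus (SE 0.40) and -0.36 for oviduct minus uterus (SE 0.40). The second of these was -1.01 without oviduct replicate 1 and 0.29 without oviduct replicate 2.

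The 4 Ctnnb1 probes disagreed for oviduct minus uterus, at 0.59, 0.56, 0.33 and -0.90 on the log2 scale. ILMN_1255869 had 5.78 and 5.40 in the ICI group, 6.18 and 6.02 in the oviduct group, and 5.61 and 5.40 in the uterus group (limma adjusted p = 0.209 for oviduct minus uterus and 0.237 for ICI minus oviduct). The brightest, ILMN_2994460, had 11.11 and 11.28 in the ICI group, 11.48 and 11.18 in the oviduct group, and 10.76 and 11.24 in the uterus group, with overlap in all 3 comparisons. No Ctnnb1 probe passed the test with all 6 arrays. The probe below 0, ILMN_2616556, had 7.55 and 7.91 in the ICI group, 5.79 and 7.39 in the oviduct group, and 7.29 and 7.69 in the uterus group. Without oviduct replicate 2, which leaves the lower oviduct array, its log2 difference was -1.70 for oviduct minus uterus and 1.94 for ICI minus oviduct.

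Tcf7l1, a TCF factor that mainly represses targets in mouse embryonic stem cells, had the next largest contrast after Wnt6. By ILMN_3109289 it read 8.83 and 9.49 on the ICI arrays, 8.22 and 6.87 on the oviduct arrays, and 9.48 and 9.42 on the uterus arrays. The other Tcf7l1 probe, ILMN_2771781, was above background on no array. By ILMN_3109289 the oviduct arrays were lowest without overlap, with an SD of 0.96 between them. The log2 difference was -1.90 for oviduct minus uterus (SE 0.44, limma adjusted p = 0.118) and 1.61 for ICI minus oviduct (SE 0.44, limma adjusted p = 0.132). Without oviduct replicate 1 they were -2.58 and 2.29. Tcf7l2 had a single analysed probe, ILMN_2641647. It read 6.06 and 6.56 on the ICI arrays, 6.71 and 5.93 on the oviduct arrays, and 7.08 and 6.66 on the uterus arrays, and did not reach an unadjusted p under 0.05 in limma. Lef1 was above background on no array, and Tcf3, which in mouse annotation is the E2A gene rather than a TCF/LEF factor, was not analysed.

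**Figure D3:**
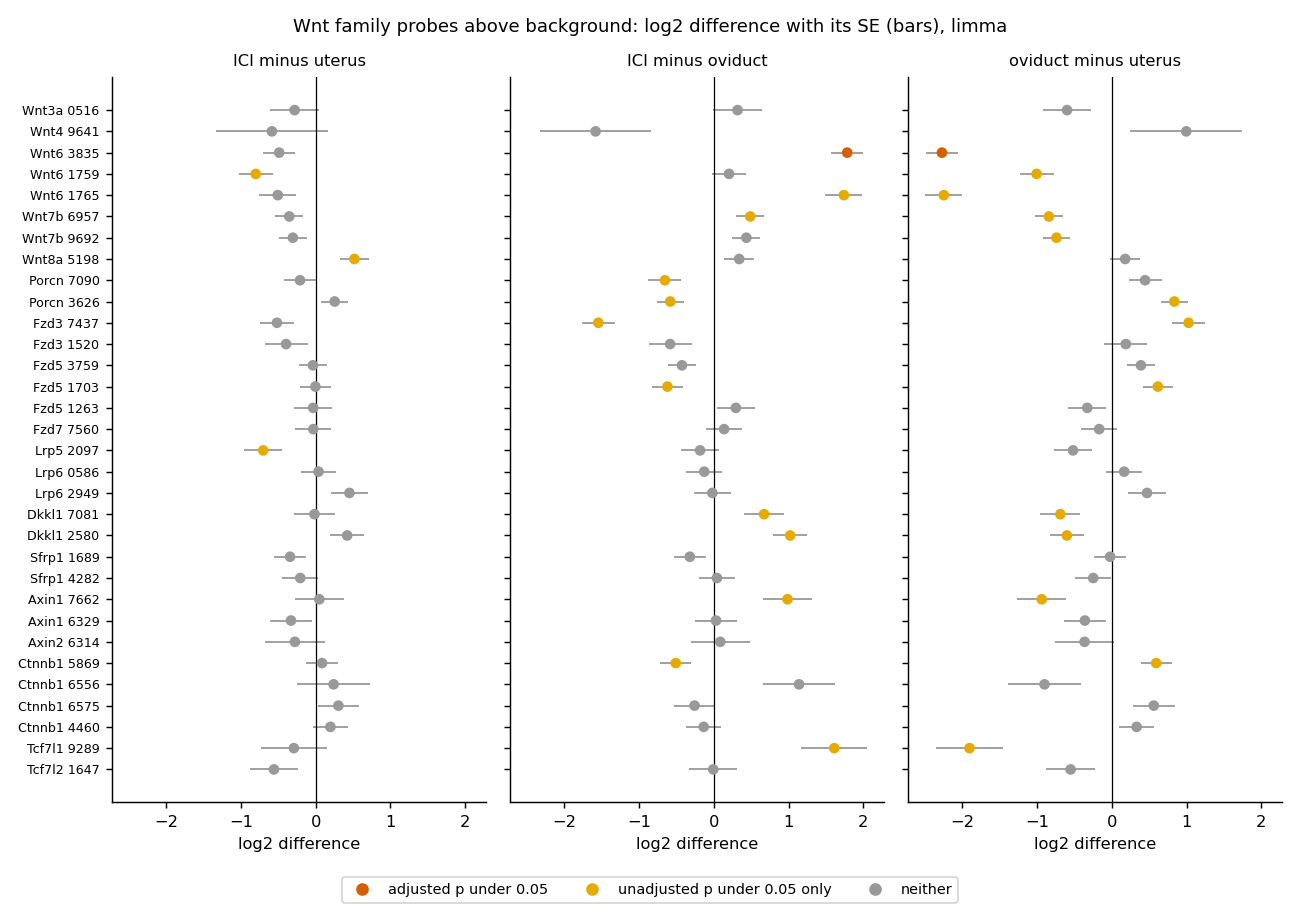
Log2 difference of each of the 32 analysed family probes (points) with its standard error (bars) for ICI minus uterus, ICI minus oviduct and oviduct minus uterus; each row is a gene symbol with the last digits of its probe. Wnt6 lies at -2.27 and -2.25 for oviduct minus uterus and at 1.78 and 1.74 for ICI minus oviduct, and no ICI minus uterus point has an adjusted p under 0.05.

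Over the family, ICI minus uterus gave 0 of 32 probes past the adjusted threshold, as it gave 0% of all analysed probes. At an unadjusted p under 0.05 in limma there were 3 family probes (9.38%), against 9.23% of all probes: the dim Wnt6 probe and Lrp5 on the low side and Wnt8a on the high side. Those shares were 3.52% of all probes on the low side and 5.71% on the high side. Each of the 3 family probes had both arrays above background only in its higher group. Their directions are therefore not independent of the detection filter. The groups did not overlap for 15 family probes (46.9%), against 54% of all, with 4 above and 11 below 0 (25.3% and 28.7% of all). The median log2 difference was -0.21 in the family and -0.03 over all probes.

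For oviduct minus uterus, 13 of the 32 family probes (40.6%) had an unadjusted p under 0.05, against 18.5% of all analysed probes. Of these, 4 were above 0 (Porcn, Fzd3, Fzd5 and Ctnnb1) and 9 below 0 (the 3 Wnt6, 2 Wnt7b and 2 Dkkl1 probes, Axin1 and Tcf7l1), where the shares of all probes were 9.39% and 9.09%. The groups did not overlap for 20 family probes (62.5%), against 47.3% of all, with 10 above and 10 below 0 (23.5% and 23.8% of all). The family median was -0.29 and that of all probes 3e-04. For ICI minus oviduct, which uses the same oviduct arrays, 12 probes (37.5%) had an unadjusted p under 0.05, against 20.7% of all, with 7 above and 5 below 0 (10.5% and 10.2% of all). For 19 probes (59.4%) these groups did not overlap, against 53.4% of all, with 10 above and 9 below 0 (26.1% and 27.3% of all). The medians were 0.04 in the family and -0.01 over all probes. Probes of 1 gene are not independent, and 23 of the 32 were above background on all 6 arrays. The dim Wnt6 probe, counted for oviduct minus uterus, was kept only through the uterus arrays. ILMN_2637090 of Porcn, counted for ICI minus oviduct, was kept only through the oviduct arrays.

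Markers of the outer cell layer, and the medians of the other embryo lists, are given beside these values. The trophectoderm list had a median log2 difference of -0.60 for oviduct minus uterus, with 13 of 14 analysed genes below 0, 0 past the adjusted threshold and 8 with an unadjusted p under 0.05. Relative to the uterus mean its median was -0.17 and 0.01 on the ICI arrays and -0.51 and -0.77 on the oviduct arrays. The list's bead signals summed to 48137 and 45798 on the ICI arrays, 57902 and 34579 on the oviduct arrays, and 52787 and 47652 on the uterus arrays. The defining gene Cdx2 read 12.76 and 12.50 on the ICI arrays, 12.08 and 12.16 on the oviduct arrays, and 13.23 and 12.81 on the uterus arrays, and Krt8 read 13.63 and 13.63, 13.74 and 13.27, and 13.62 and 13.61 on the arrays in the same order. The log2 difference for oviduct minus uterus was -0.90 for Cdx2, -0.11 for Krt8, -1.23 for Eomes, -1.93 for Gata2 and -2.09 for Elf5, which was not above background on oviduct replicate 2. A lower median was not particular to trophectoderm. For oviduct minus uterus the primitive endoderm list had a median of -0.54, with 5 of 8 analysed genes below 0 and 3 above. The inner cell mass and epiblast list had a median of 0.18, with 7 of 11 above 0 and 4 below. The part of these cell types in the values of Wnt6, Wnt7b and the other members was not tested.

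The rest of the pathway was read from 6 lists of 94 genes, of which 88 were on the array and 52 analysed. For oviduct minus uterus 1 gene fell, 0 rose, and 20 had an unadjusted p under 0.05 below 0 and 2 above 0, where the shares of all analysed probes were 9.09% and 9.39%. The gene was Msx1, a homeobox gene used as a Wnt and BMP target. It read 7.92 and 8.77 on the ICI arrays, 4.88 and 5.01 on the oviduct arrays, and 8.43 and 8.35 on the uterus arrays. The log2 difference was -3.45 for oviduct minus uterus (SE 0.29, limma adjusted p = 0.0359) and 3.40 for ICI minus oviduct (SE 0.29, limma adjusted p = 0.0328), inexact because only 1 oviduct array was above background. For ICI minus oviduct it was again the only list gene past the test, and for ICI minus uterus there were 0, with 2 above and 4 below 0 at an unadjusted p under 0.05 (5.71% and 3.52% of all).

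Of the 6 lists, the widely used target genes had the median farthest from 0 in both oviduct comparisons, but not for ICI minus uterus, where it was -0.06; Cdx2 and Id2 among them are also on the trophectoderm list. Only 12 of the 21 target genes on the array were analysed, and Sp5, Notum, Nkd1, Lgr5, Rnf43 and Znrf3 were among those that were not. For oviduct minus uterus 11 of 12 were below 0, with a median log2 difference of -0.74. For ICI minus oviduct 10 of 12 were above 0, with a median of 0.85. The part of Wnt signalling in these values was not tested. The cyclin gene Ccnd1 read 7.47 and 8.25 on the ICI arrays, 5.82 and 6.14 on the oviduct arrays, and 8.46 and 8.05 on the uterus arrays. Its log2 difference was -2.28 for oviduct minus uterus (limma adjusted p = 0.0596) and 1.88 for ICI minus oviduct (limma adjusted p = 0.0650). The homeobox gene Cdx1 had -2.36 for oviduct minus uterus (limma adjusted p = 0.113), and the growth factor gene Vegfa 1.04 for ICI minus oviduct (limma adjusted p = 0.0689). For ICI minus uterus the smallest p belonged to Fgf4 (0.89), Myc (0.55) and Cdx2 (-0.39), with limma adjusted p of at least 0.535.

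Among regulators of ligand release and the extracellular space, 6 of 18 genes were analysed and 0 passed. Kremen1, a Dkk receptor, differed by -1.16 for oviduct minus uterus (limma adjusted p = 0.0874) and 0.98 for ICI minus oviduct, while its relative Kremen2 differed by 0.56 and -0.92. The membrane antagonist Apcdd1 differed by -0.78 for oviduct minus uterus and 1.08 for ICI minus oviduct (limma adjusted p = 0.0747). The glypican gene Gpc3 was above background on both oviduct arrays and on no ICI or uterus array, at least 1.19-fold lower in the ICI group than in the oviduct group (limma adjusted p = 0.209). The detection filter kept Gpc3 only through the oviduct arrays, so its direction is not independent of that filter. Of 9 co-receptor and turnover genes only Ryk and Ptk7 were analysed. Ryk, a kinase-like Wnt receptor, differed by 0.04 for ICI minus uterus, 0.02 for oviduct minus uterus and 0.03 for ICI minus oviduct, and Ptk7 differed by -0.23 for ICI minus uterus.

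For the Dishevelled and destruction complex list, 14 of 21 genes were analysed and 0 passed, with a median of -0.44 for oviduct minus uterus. Dact2, which binds Dishevelled, was above background on both ICI and both uterus arrays and on neither oviduct array, at least 2.17-fold lower in the oviduct group than in the uterus group (limma adjusted p = 0.0923). Apc, a scaffold of the complex, differed by -0.68 for oviduct minus uterus and 0.96 for ICI minus oviduct (limma adjusted p = 0.0812). The ubiquitin ligase gene Btrc differed by -0.53 for ICI minus uterus and -0.58 for ICI minus oviduct, and Dvl1 by -0.38 for ICI minus uterus. Nkd2, dim outside the uterus arrays, was at least 1.20-fold lower in the ICI group than in the uterus group. The detection filter kept Nkd2 only through the uterus arrays, so its direction is not independent of that filter. Nkd2 is among the list genes counted below 0 in both comparisons with the uterus group.

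The list of nuclear partners of β-catenin had 12 of 15 genes analysed, and that of planar cell polarity 6 of 9, with 0 past the test in either. For ICI minus uterus the partners had a median of -0.38 with 10 of 12 below 0, among them Smarca4 (-0.58), Bcl9 (-0.59) and Ctnnbip1 (-0.55), each with a limma adjusted p of at least 0.535. For oviduct minus uterus Ctnnbip1, an inhibitor of β-catenin, differed by -0.79, Ctbp2 by -0.44 and Cdc73 by 0.61. Of the polarity genes, Vangl2 differed by -0.61 and Prickle2 by -0.45 for oviduct minus uterus, Scrib by -0.40 and Daam1 by 0.28 for ICI minus uterus, and Prickle1 by -0.60 and Celsr3 by -0.57 for ICI minus oviduct.

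The other 31 family genes were not analysed. They are Wnt1, Wnt2, Wnt2b, Wnt3, Wnt5a, Wnt5b, Wnt7a, Wnt8b, Wnt9a, Wnt9b, Wnt10a, Wnt10b, Wnt11, Wnt16, Fzd1, Fzd2, Fzd4, Fzd6, Fzd8, Fzd9, Fzd10, Dkk1, Dkk2, Dkk3, Dkk4, Sfrp2, Sfrp4, Sfrp5, Wif1, Lef1 and Tcf3. Counted by probe, 63 were not analysed, of which 46 were above background on no array, 15 on 1 array, 1 on 2 arrays and 1, of Wif1, on 1 array of each group. A level below background is a bound and not an absence. Some Wnt genes are known to lie in conserved neighbouring pairs, and 4 neighbouring pairs are in the family. In 2 of them only 1 gene was analysed (Wnt6 beside Wnt10a, and Wnt3a beside Wnt9a), and in the other 2 neither was (Wnt9b beside Wnt3, and Wnt10b beside Wnt1).

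The 15 probes above background on 1 array were unevenly spread. Of all probes, 40.2% were above background on oviduct replicate 2 and 36.5% to 39.9% on the other arrays. How all probes above background on 1 array were spread was not counted, so the family's spread cannot be set against it. Oviduct replicate 2 held 8 of them, from Dkk3, Fzd1, Fzd10, Sfrp2, Wnt5a and Wnt10b, oviduct replicate 1 held 3, uterus replicate 2 held 2, and ICI replicate 2 and uterus replicate 1 held 1 each. Sfrp2, a secreted frizzled-related antagonist made by many fibroblasts, read 7.36 on oviduct replicate 2 and 4.68 on oviduct replicate 1, with 4.77 and 4.84 on the ICI arrays and 4.75 and 4.79 on the uterus arrays. Wnt5a, a ligand of the non-canonical branch, read 6.02 there by its brighter probe and 4.52 on oviduct replicate 1. The 2 Dkk3 probes read 5.97 and 5.66 there and 4.63 and 4.55 on oviduct replicate 1.

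Some markers of maternal tissue were high on the same array, and others on the uterus arrays. Ovgp1, the glycoprotein secreted by the oviduct, read 6.52 and 8.35 on oviduct replicates 1 and 2, and the stromal proteoglycan gene Dcn 6.14 and 8.32, against at most 5.43 and 4.75 on the other 4 arrays. Of 11 stroma and muscle markers, 2 and 3 were above background on the ICI arrays, 3 and 5 on the oviduct arrays, and 3 and 4 on the uterus arrays, with summed signals of 914 and 879 (ICI), 1042 and 1311 (oviduct), and 935 and 873 (uterus). Col1a1 and Col3a1 read 5.46 and 5.33 on oviduct replicate 2, and Lum was above background on no array. Pdgfrb was above background on the uterus arrays alone (5.31 and 5.10), and Col1a2 on 1 ICI and 1 uterus array but neither oviduct array. Of 8 oviduct epithelium markers, 2 and 3 were above background on the ICI arrays, 2 and 4 on the oviduct arrays, and 1 and 1 on the uterus arrays, with summed signals of 661 and 690 (ICI), 783 and 1042 (oviduct), and 663 and 631 (uterus), while Pax8 was above background on none. Sntn, above background on all 6 arrays, read 5.29 and 5.80 on the oviduct arrays and 6.14 and 5.64 on the uterus arrays. Of 11 blood and immune markers, 3 and 6 were above background on the ICI arrays, 5 and 9 on the oviduct arrays, and 4 and 6 on the uterus arrays, with summed signals of 883 and 1585 (ICI), 1128 and 4404 (oviduct), and 2788 and 2055 (uterus). The part of these tissues in the levels of Sfrp2, Dkk3, Wnt5a and Wnt4 was not tested. The Wnt6 difference for oviduct minus uterus was -2.19 without oviduct replicate 2.

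The uterine epithelium list had its highest summed signals on the uterus arrays, and Wnt6 and Wnt7b had their highest normalized levels there. Its 9 genes on the array had summed signals of 5103 and 5199 (ICI), 4816 and 3804 (oviduct), and 6213 and 5515 (uterus), with 2 and 5 above background on the ICI arrays, 3 and 4 on the oviduct arrays, and 5 and 5 on the uterus arrays. Prap1, a secreted protein of the pregnant uterus, read 4.56 and 5.08 on the ICI arrays, 4.52 and 4.66 on the oviduct arrays, and 10.19 and 8.76 on the uterus arrays. It was above background on neither oviduct array and fell there relative to the uterus group, by a factor of at least 23.1 (limma adjusted p = 0.0376); for ICI minus uterus, with 1 ICI array above background, it did not pass (limma adjusted p = 0.359). Of the 5 analysed genes, 4 were below 0 and 1 above 0 for oviduct minus uterus, and likewise for ICI minus uterus. Ltf was the gene above 0 for oviduct minus uterus, at 6.69 and 8.46 on the oviduct arrays and 7.32 and 6.46 on the uterus arrays. Wfdc2 was the gene above 0 for ICI minus uterus, at 12.15 and 12.33 on the ICI arrays and 12.09 and 12.19 on the uterus arrays. Muc1 and Wfdc2 were above background on all 6 arrays, and Foxa2, Krt13, Cxcl15 and Sprr2f on none. The part of uterine epithelium in the levels of Wnt6, Wnt7b and the other members was not tested.

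**Figure D4:**
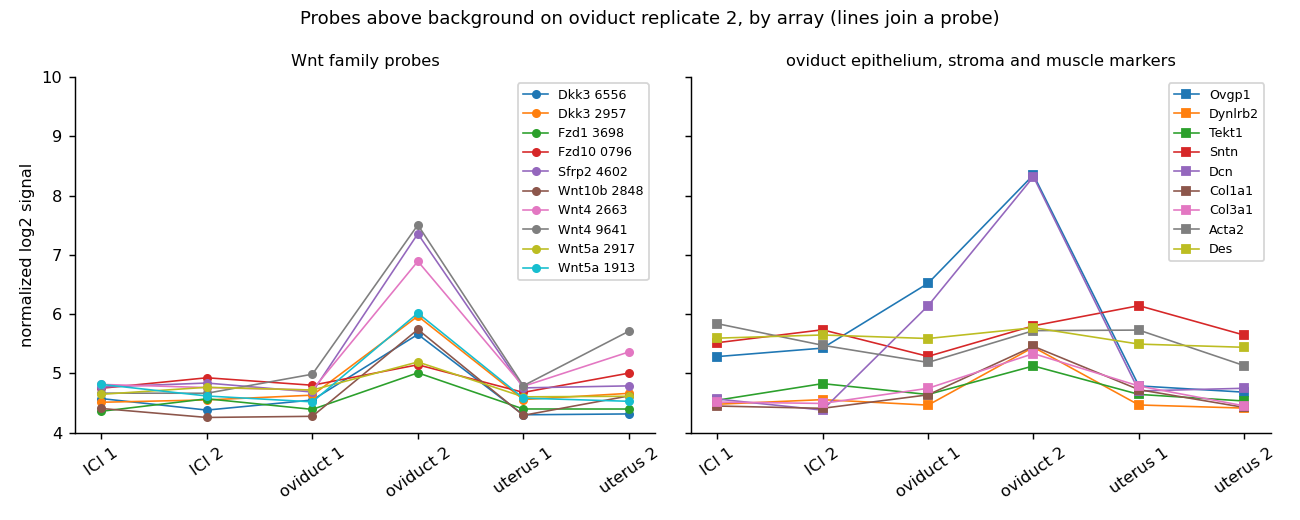
Normalized log2 signal on each array of the 8 family probes above background only on oviduct replicate 2 and the 2 Wnt4 probes (left), and of the oviduct epithelium, stroma and muscle markers above background on that array (right); lines join a probe and stand for no order of arrays. All were chosen for being above background on oviduct replicate 2, so a peak on that array adds no support. Wnt4 (7.50) and Sfrp2 (7.36) peak on it, as do Ovgp1 (8.35) and Dcn (8.32). Sntn is highest on uterus replicate 1 (6.14) and Acta2 on ICI replicate 1 (5.84).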

How the data were processed

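The authors deposited, per the file headers, a mean bead intensity, its standard error, the number of beads (median 43 or 44 per probe) and a detection p-value for each of 45281 probes on 6 arrays. These intensities come without normalization between arrays. A table of log2 values, deposited by the authors with no method given in the sources used here, was set against them: its values equal log2 intensity minus a constant per array and a constant per probe, within 0.00172, and the second constant is unknown. The median of these values per array was -0.004 and 0.036 (ICI), -0.109 and -0.075 (oviduct), and 0.082 and 0.022 (uterus). It was used only as an alternative.

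The neqc function of limma 3.58.1 (R 4.3.3) corrected the background, added an offset of 16, normalized by quantiles and took log2. A probe was kept where both arrays of 1 or more groups had a detection p-value below 0.05 (17677, representing 9857 named genes). Of all probes 34885 have 1 gene symbol, 18 several and 10378 none in the platform annotation; 34807 matched RefSeq genes of GRCm38.p6, which changed 0 symbols. A noncoding transcript named after Fzd10 was left out of the family. All 6 arrays entered 1 fit with 3 group means (lmFit, eBayes; degrees of freedom 3 residual, 3.77 prior), with two-sided moderated tests and Benjamini-Hochberg adjustment over the kept probes at a threshold of 0.05. The fit was tested on simulated data. The number of arrays limits the precision; for analysed family probes the standard error over beads had a median of 4.05% of the signal and covers 1 array only.

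The 70 h after the second hormone in the labels may refer to ICI or to the flushing of embryos, and the labels state day 4 after a plug on day 1 for both ligation and collection.

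The family, the gene lists and the tests were chosen with earlier results of these data known. Values on every array are given for Wnt6, Wnt7b, family probes past the threshold and those with an unadjusted p under 0.05, and for other members that show the spread. Genes outside the family are named when past the threshold or among the 3 smallest p of their list in a comparison (29 genes). A gene is given by its brightest analysed probe, mostly with its other analysed probes beside it. Alternatives were median scaling, the authors' values, a stricter or no detection filter, only the compared groups, a replicate block, array weights and each array left out. Where that leaves 1 array in a group, its spread is assumed to be that of the other groups. Plots used matplotlib 3.10.9 (Python 3.11.15).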

Additional observations from a re-analysis of the deposited data

How the results depend on the processing

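The calls of Wnt6 were lost under 10 of 13 alternatives in each oviduct comparison, while the direction was kept in all 13. For oviduct minus uterus, the count of 1 family probe past the test became 0 with median scaling, with the authors' log2 values, without a detection filter, in a fit of only the 2 groups compared, with the replicate block and with array weights, and stayed 1 at a detection p-value under 0.01. Leaving out 1 array in turn gave 0 to 10. Without oviduct replicate 1 the count was 10, without oviduct replicate 2 it was 4, and without an ICI or uterus array 0. For ICI minus oviduct, the count of 1 became 0 under the same 6 alternatives and 3 at a detection p-value under 0.01 (Wnt6 by 2 probes, and Fzd3). Leaving out 1 array in turn gave 0 to 6, where 6 were found without oviduct replicate 1, 5 when replicate 2 of that group was left out, and 0 otherwise. For ICI minus uterus the count was 0 throughout. The count of 32 family probes above background was 28 at a detection p-value under 0.01, 49 when 1 array sufficed and 23 when all 6 arrays were required. Over all 96 family differences (32 probes in 3 comparisons), 57 of 1236 alternative values turned sign, all of them of differences under 2 SE with no call under that alternative, while 23 came past the threshold and 20, all of Wnt6, lost it. Among differences printed in the text, 3 turned sign for oviduct minus uterus without oviduct replicate 2, and leaving out 1 array in turn gave -0.26 to 2.25 for Wnt4, -1.01 to 0.29 for Axin2 and -0.67 to 0.012 for the brightest Fzd5 probe. With median scaling the median of all probes was 0.20 for oviduct minus uterus and -0.22 for ICI minus oviduct, beside which Wnt6 had -1.87 and 1.32; over all probes the calls were then 9 higher and 5 lower, against 1 higher and 8 lower, for oviduct minus uterus, and 13 higher and 23 lower, against 39 higher and 21 lower, for ICI minus oviduct. Same-numbered arrays deviated together at r = 0.0657, 0.125 and 0.23, and with 2 numbers per group this does not pair the samples, so the replicate block is given only here. Causes of these changes were not tested, beyond the smaller number of arrays where 1 is left out. Dim probes near background, among them Wnt4, Wnt8a, Lrp5 and the third Wnt6 probe, give bounds rather than levels.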
